A study of Mus musculus with 4 samples.

Results

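Interferon-stimulated genes are a set of 42 genes, given by name, whose transcription is known to rise when cells receive an interferon signal. They were taken from the 54838 genes listed for each library by matching gene symbols, and all 42 were found. Expression was compared between Hepa1-6 cells wild type for Acvr2a (NC, 2 libraries) and Hepa1-6 Acvr2a knockout cells (KO, 2 libraries). Hepa1-6 is a mouse hepatocellular carcinoma line, and Acvr2a encodes a type II receptor for activins. The knockout cells are described as subclones, and the labels do not say whether KO 1 and KO 2 are separate clones, how the gene was disrupted, or whether the 2 libraries of a group came from separate cultures. No interferon or other treatment is given for either group, so the levels below are those of cells as labelled. The p-values therefore measure the spread between these libraries, which may be technical.

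Type I interferons bind a receptor made of Ifnar1 and Ifnar2 and activate the kinases Jak1 and Tyk2. These phosphorylate STAT proteins, Stat2 among them, which join Irf9 and bind the interferon-stimulated response element in the promoters of target genes. Type II interferon acts through a separate receptor, and its signal reaches genes through the gamma-activated site. The induced genes sense viral nucleic acid, block viral RNA or particles, attack membranes of intracellular pathogens, or tune the pathway itself. Many of them are also expressed at a low level in cells that receive no interferon.

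Library totals lay between 11597923 and 13910582 expected counts. Of the 12510 genes with enough counts to test, 4741 (37.9%) differed between the groups at an adjusted p of 0.05, so a call is common in these data. Acvr2a itself stood at 7.12 and 7.80 CPM (counts scaled by library total) in NC 1 and NC 2 and at 5.69 and 7.18 CPM in KO 1 and KO 2. Its groups overlapped, and the log2 fold change of KO over NC was -0.21 (SE 0.20, adjusted p = 0.433), so total Acvr2a RNA did not separate the labelled genotypes. The names NC and KO below follow the labels. Of 8 hepatocyte and hepatoma markers, 7 had at least 10 counts in each library, and Ttr had 1, 0, 1 and 0 counts. Of the 7, Afp (-1.21) and Hnf4a (-0.995) were lower in KO and Alb (0.41) and Trf (0.54) higher, in log2 units, and 3 did not pass. The summed counts of 12 leukocyte markers were 279 and 386 in the NC libraries against 681 and 865 in the KO libraries, nearly all of them from Cd68, and 4 of the 12 (Cd3e, Cd3d, Nkg7 and Siglech) were at 0 in every library. Without Cd68 they came to 27 and 48 (NC) and to 58 and 53 (KO), and the pan-leukocyte gene Ptprc had 0, 1, 2 and 2 counts. Fibroblast marker counts, nearly all from Dcn, were 16829 and 20630 in NC against 21441 and 23047 in KO. Dcn itself did not pass (log2 difference 0.16, adjusted p = 0.193). Pdgfra, another of these 4 markers, was higher in KO (140 and 157 counts against 290 and 329, log2 difference 0.97, adjusted p = 5.42e-06). Pdgfrb had 0, 1, 2 and 1 counts, and Lum was at 0 in every library. The 3 endothelial markers summed to between 4 and 14 in each library. The part of other cells in the results below was not tested.

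The response element is shown first because it is what many of these genes have in common. A promoter window from 250 bases before to 50 bases after the start site was found in RefSeq (GRCm38.p6) for 32 of the 42 genes. The core of the element, GAAA, any 2 bases and GAAA again, read on either strand, occurred in 15 of the 32 windows (46.9%) and in 1079 of the 27025 windows of all genes (3.99%). The core of the gamma-activated site, TTC, any 3 bases and GAA, which is the same pattern on both strands, occurred in 9 of the 32 (28.1%) and in 2582 of all windows (9.55%). The 2 patterns were counted separately, and a stretch of promoter can hold both. The stretches below were chosen to show guanylate-binding protein genes that stand next to each other, other genes that were higher in KO, a gene with the core that was not (Irgm1), and a gene with the core that had almost no RNA (Ifit1). They are written from 5′ to 3′ on the strand of the gene, with every match to the response element core in capitals.

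Gbp7: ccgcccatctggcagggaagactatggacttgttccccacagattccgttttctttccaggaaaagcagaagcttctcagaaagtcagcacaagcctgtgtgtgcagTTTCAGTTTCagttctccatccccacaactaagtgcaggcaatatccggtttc
Gbp3: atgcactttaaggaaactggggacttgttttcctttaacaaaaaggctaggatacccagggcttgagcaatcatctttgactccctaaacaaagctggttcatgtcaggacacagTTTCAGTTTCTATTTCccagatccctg
Gbp2: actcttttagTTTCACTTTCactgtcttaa
Isg15: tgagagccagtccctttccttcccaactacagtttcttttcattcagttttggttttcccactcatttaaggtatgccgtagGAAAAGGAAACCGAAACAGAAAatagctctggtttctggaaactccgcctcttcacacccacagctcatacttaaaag
Oas1a: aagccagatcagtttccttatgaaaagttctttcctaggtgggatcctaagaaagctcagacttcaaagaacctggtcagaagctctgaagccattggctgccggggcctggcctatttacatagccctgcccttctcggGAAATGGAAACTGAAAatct
Rsad2: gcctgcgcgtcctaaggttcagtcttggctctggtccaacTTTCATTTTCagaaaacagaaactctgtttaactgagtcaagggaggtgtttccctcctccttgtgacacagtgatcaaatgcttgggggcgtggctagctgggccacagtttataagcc
Irgm1: gtttcaaGAAATAGAAACCGAAActgattc
Ifit1: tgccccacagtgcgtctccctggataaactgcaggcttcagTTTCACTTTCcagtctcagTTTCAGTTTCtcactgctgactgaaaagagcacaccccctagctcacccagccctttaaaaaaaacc

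On GRCm38.p6, the Gbp7, Gbp3 and Gbp2 stretches are chr3:142530176-142530335, chr3:142559884-142560025 and chr3:142620594-142620623, all on the + strand. Isg15 is at chr4:156200819-156200978, Oas1a at chr5:120907526-120907685, Rsad2 at chr12:26456453-26456612 and Irgm1 at chr11:48871428-48871457, all on the - strand. The Ifit1 stretch is chr19:34640744-34640870 on the + strand. All are sequence upstream of the RefSeq start site, and the Gbp2 and Irgm1 stretches are limited to 30 bases because transcripts in the GENCODE annotation begin further upstream there. In Isg15 the capitals are 3 overlapping matches, which begin 78, 72 and 66 bases before the start site. Oas1a holds 2 overlapping matches at 20 and 14 bases, and Gbp3 2 at 45 and 39 bases. Ifit1 holds 2 separate matches at 104 and 85 bases.

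**Figure D1:**
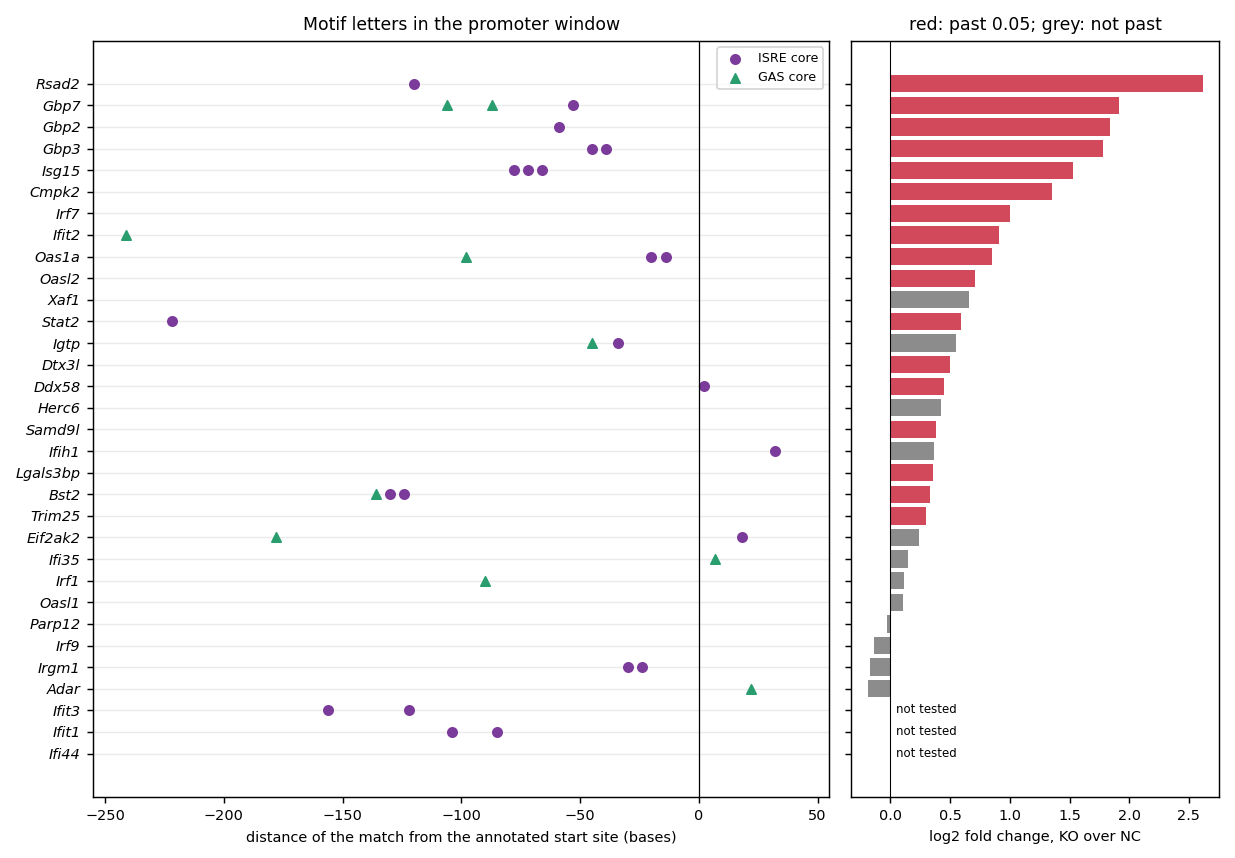
Position of core matches to the interferon-stimulated response element and the gamma-activated site in the promoter windows of the 32 genes found in RefSeq, by distance from the start site in bases, beside the log2 fold change of KO over NC as bars. Of these, 15 hold at least 1 response element core and 9 at least 1 gamma-activated site core.

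Genes that were higher in KO were found with and without a match. Of the 13 tested genes with the response element core, 9 were higher in KO and the median log2 fold change was 0.59. Of the 16 without it, 8 were higher and the median was 0.37. For the gamma-activated site core, 4 of 9 genes with it and 13 of 20 without it were higher, with medians of 0.33 and 0.48. Of all genes tested, 19.7% were higher. Rsad2 and Isg15, which hold the response element core and not the other core, passed the count filter described below with fewer than 2 NC libraries at its level. Such genes could hardly be found lower in KO, and the counts and medians above include them. The matches are counts of letters within 300 bases and do not show whether a factor binds.

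Of the 42 genes, 38 had enough counts to test and 4 did not (Ifit1, Ifit3, Mx2 and Ifi44). In KO, 23 were higher, against 19.7% of all genes tested, and 1, Usp18, was lower, against 18.2%. The other 14 did not pass the threshold. The median log2 fold change of the 38 was 0.52, where that of all genes tested was -0.0037. A gene passes the count filter if 2 libraries reach it, and 5 of the 38 (Dhx58, Rsad2, Isg15, Rtp4 and Mx1) passed with fewer than 2 NC libraries at that level. Such genes could hardly be found lower in KO, so the counts were also taken without them. Among the 33 genes with both NC libraries at the filter level, 18 were higher, 1 was lower and 14 did not pass, with a median of 0.43. Of all 11834 genes of that kind, 2183 were higher (18.4%) and the median was -0.023. These genes can still include some that passed through NC alone, which could hardly be found higher. They also include all 2282 genes called lower, so their share higher and their median may lie too low. Comparisons with the 11834 genes below share this limit. DESeq2 called 16 of the 38 higher, against 13.3% of all genes tested, without Samd9l, Ifit2, Bst2, Isg15, Trim25, Dtx3l and Rtp4.

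**Figure D2:**
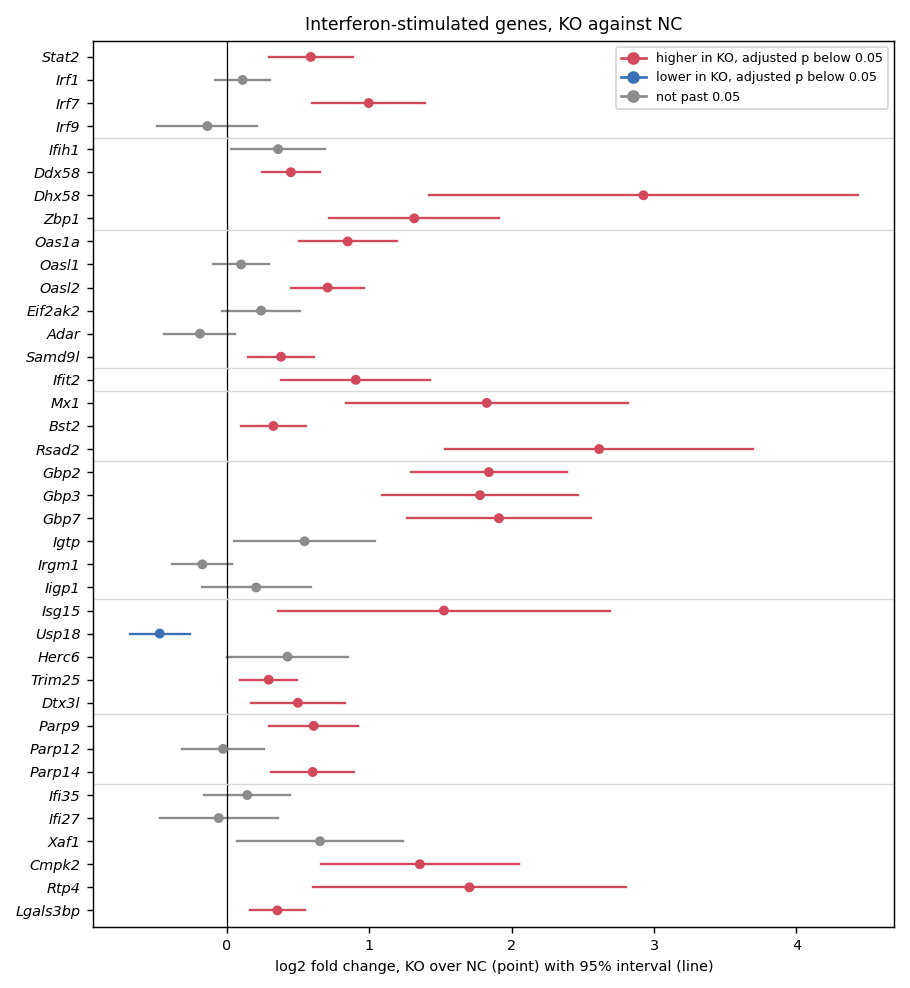
Log2 fold change of KO over NC for the 38 tested genes, with 95% intervals, ordered by role. Most points lie to the right of 0, and Usp18 is the gene whose interval lies wholly to the left.

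Transcription factors came first in the pathway. Stat2, which carries the activation domain of the complex that binds the response element, stood at 14.2 and 12.3 CPM in NC and at 19.7 and 20.1 CPM in KO. The groups did not overlap, and the log2 fold change was 0.59 (SE 0.14, adjusted p = 0.00184). Irf7, the factor that drives the interferon alpha genes, was at 5.10 and 5.63 CPM in NC and at 10.2 and 11.3 CPM in KO. Both KO libraries held about the same level, and the log2 fold change was 0.997 (SE 0.19, adjusted p = 0.000186). Irf9, the DNA-binding partner of Stat2, was at 10.8 and 9.96 CPM in NC and at 8.96 and 9.92 CPM in KO. Its log2 fold change was -0.14 (95% interval -0.49 to 0.22), which did not pass. Irf1, a factor induced by type II interferon, was at 66.6 and 67.8 CPM in NC and at 72.6 and 72.7 CPM in KO. Its difference of 0.11 on the log2 scale did not pass either (95% interval -0.081 to 0.31). Irf9 shares exons on its strand with Rnf31, so reads of the shared bases cannot be told apart by strand. Irf1 and Irf7 overlap Gm17334 and Phrf1 on the other strand, and their counts can hold reads of those genes where the counting did not separate strands.

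Sensors of viral nucleic acid were higher for 3 of 4 genes, against 19.7% of all genes tested, with a median log2 fold change of 0.88. The count and the median include Dhx58, which passed the count filter with fewer than 2 NC libraries at its level. Such a gene could hardly be found lower in KO. Ddx58, which encodes RIG-I, a sensor of RNA ends, was the most expressed of the 4 by CPM, at 52.6 and 52.4 CPM in NC and 67.8 and 75.6 CPM in KO. Its log2 fold change was 0.45 (SE 0.10, adjusted p = 0.000678). Zbp1, a sensor of Z-form nucleic acid linked to cell death, was at 2.46 and 1.95 CPM in NC and at 5.01 and 5.92 CPM in KO. That is a rise of 1.32 in log2 units (SE 0.29, adjusted p = 0.000636), with both KO libraries above both NC libraries. Dhx58, a regulator of RIG-I-like sensors, had 3 and 2 counts in the NC libraries against 20 and 22 in the KO libraries. The log2 fold change was 2.93 (SE 0.73, adjusted p = 0.000397), with a wide 95% interval of 1.42 to 4.43 and few NC counts behind it. Per length the difference was smaller, at 0.30 and 0.45 TPM in NC and 1.12 and 1.20 TPM in KO, a ratio of 3.09 against a fitted fold of 7.599 on counts. Ifih1, a sensor of long double-stranded RNA, was at 11.6 and 9.82 CPM in NC and at 12.8 and 14.7 CPM in KO. It did not pass (log2 fold change 0.36, adjusted p = 0.0776).

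Effectors that act on RNA gave 3 higher genes of 6, against 19.7% of all genes tested, with a median log2 fold change of 0.31. Oas1a, which makes the second messenger that activates RNase L, was at 9.59 and 7.65 CPM in NC and at 16.6 and 14.3 CPM in KO. In log2 units the rise was 0.85 (SE 0.17, adjusted p = 0.00022). The expected counts of Oas1a were fractions in every library (109.36 and 106.44 in NC, 219.36 and 192.65 in KO), so some of its reads were divided by the estimate. Oasl2 was at 20.4 and 20.7 CPM in NC and at 30.7 and 36.4 CPM in KO, a rise in log2 units of 0.71 (SE 0.12, adjusted p = 6.37e-05). Its neighbour Oasl1, 11.01 kb away on chromosome 5, was at 67.2 and 62.6 CPM in NC and at 69.0 and 70.1 CPM in KO. The Oasl1 difference of 0.10 did not pass (95% interval -0.095 to 0.30), and a test of the difference between these neighbours was not run. Samd9l, a gene that restricts viral growth, was at 25.5 and 27.6 CPM in NC and at 34.7 and 34.6 CPM in KO. The log2 fold change of Samd9l was 0.38 (SE 0.11, adjusted p = 0.00978), and without NC 1 it was 0.32. Its TPM overlapped between the groups, at 6.48 and 9.05 in NC and 10.1 and 8.76 in KO. With limma on log2(TPM + 1) the Samd9l difference was 0.26 and did not pass (adjusted p = 0.356). Eif2ak2, the kinase PKR that halts translation, and Adar, which edits double-stranded RNA, did not pass, with log2 fold changes of 0.24 and -0.19.

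Of the IFIT family, whose proteins bind foreign RNA, Ifit1 and Ifit3 had almost no counts. Ifit1 had 1 count in every library but NC 2, where it had 0, and Ifit3 had 1 count in each of NC 1 and KO 1 and 0 in the others. A count of 0 allows up to 3 counts, or between 0.216 and 0.259 CPM in these libraries. Of the 3 family members, Ifit2 was the one tested, with 45 and 39 counts in the NC libraries against 79 and 89 in the KO libraries. The groups did not overlap, and the log2 fold change was 0.91 (SE 0.26, adjusted p = 0.00573). The call was not kept without NC 2 (0.67, adjusted p = 0.0794) or without KO 2 (0.83, adjusted p = 0.0511). Ifit2 and Ifit3 lie 7.111 kb apart on chromosome 19, with Ifit1 52.14 kb beyond Ifit3.

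All 3 tested genes for dynamin-like and membrane proteins were higher, against 19.7% of all genes tested. Rsad2 and Mx1 passed the count filter with fewer than 2 NC libraries at its level, so they could hardly be found lower. Of all 676 tested genes of that kind, 40.8% were higher. Rsad2, which encodes viperin, an enzyme that makes a chain terminator of viral RNA, had 7 and 4 counts in the NC libraries against 35 and 38 in the KO libraries. This was a log2 fold change of 2.61 (SE 0.53, 95% interval 1.54 to 3.69, adjusted p = 7.82e-05). Mx1, a dynamin-like GTPase that blocks influenza viruses, had 3 and 16 counts in the NC libraries against 36 and 35 in the KO libraries. The NC libraries of Mx1 were far apart, and the rise of 1.83 in log2 units (SE 0.48, adjusted p = 0.00233) became 1.19 without NC 1 (adjusted p = 0.0529) and 3.29 without NC 2. Bst2, which encodes tetherin, was at 43.2 and 34.5 CPM in NC and at 46.2 and 50.9 CPM in KO. The rise was 0.33 in log2 units (SE 0.11, adjusted p = 0.0221), which missed the threshold without NC 2 (0.17, adjusted p = 0.358) and without KO 2 (0.25, adjusted p = 0.128). Mx2, annotated as a polymorphic pseudogene, had 2 and 5 counts in the NC libraries against 12 and 10 in the KO libraries and was under the filter.

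**Figure D3:**
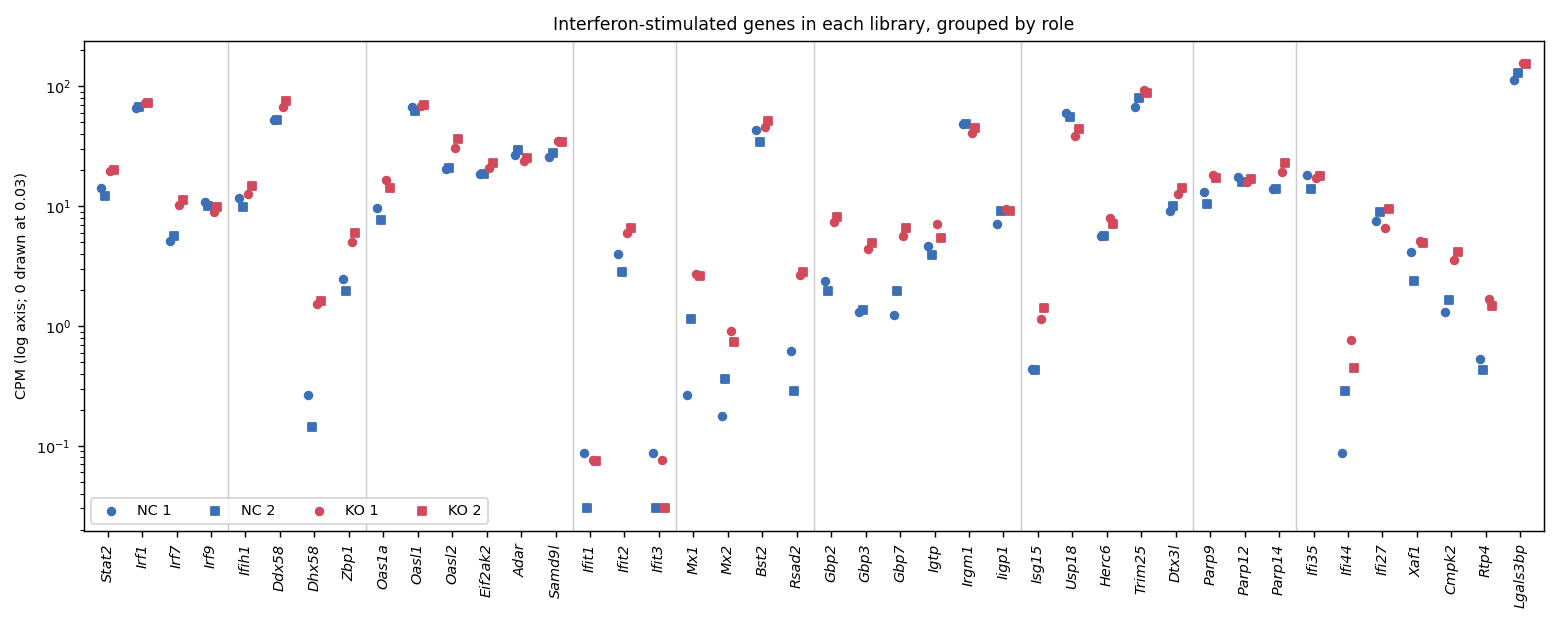
CPM (log axis) of each of the 42 genes, grouped by role, with 1 point for each of the 4 libraries, blue for NC and red for KO. A level of 0 is drawn at the bottom. The genes run from Ifit1 and Ifit3, with at most 1 count in a library, to Lgals3bp, above 100 CPM in all 4 libraries.

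The 3 listed genes for guanylate-binding proteins, GTPases that coat pathogen vacuoles, were all higher in KO, against 19.7% of all genes tested. Gbp2 had 27 and 27 counts in the NC libraries against 97 and 109 in the KO libraries, a log2 fold change of 1.84 (SE 0.27, 95% interval 1.29 to 2.39, adjusted p = 3.02e-06). Gbp3 was at 1.32 and 1.37 CPM in NC and at 4.40 and 4.89 CPM in KO, a rise in log2 units of 1.78 (SE 0.33, adjusted p = 8.57e-05). Gbp7 was at 1.23 and 1.95 CPM in NC and at 5.62 and 6.59 CPM in KO, a rise in log2 units of 1.91 (SE 0.31, adjusted p = 1.62e-05). All 3 were thus between 3.43-fold and 3.76-fold higher in KO, with intervals that overlap each other. They are neighbours on chromosome 3, with 9.876 kb between Gbp7 and Gbp3 and 47.39 kb between Gbp3 and Gbp2, and each promoter stretch above holds the response element core. They are related in sequence, and the deposited expected counts of all 3 are whole numbers in every library. The listed genes for immunity-related GTPases did not pass. Igtp was at 4.66 and 3.90 CPM in NC and at 7.06 and 5.40 CPM in KO (log2 fold change 0.55, adjusted p = 0.0722). Irgm1, whose promoter also holds the core, was at 48.5 and 48.5 CPM in NC and at 40.8 and 45.3 CPM in KO (log2 fold change -0.17, adjusted p = 0.195). Iigp1 had a log2 fold change of 0.21 (adjusted p = 0.405).

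The ISG15 and ubiquitin genes held both directions. Usp18, the protease that removes ISG15 from proteins and dampens signalling at the type I receptor, was at 59.5 and 55.5 CPM in NC and at 38.9 and 44.1 CPM in KO. Both KO libraries were below both NC libraries, and the log2 fold change was -0.47 (SE 0.10, adjusted p = 0.00069). With limma on log2(TPM + 1) the difference was -0.31 and did not pass (adjusted p = 0.0939). Isg15, the ubiquitin-like modifier itself, had 5 and 6 counts in the NC libraries against 15 and 19 in the KO libraries. The rise of 1.53 in log2 units (SE 0.57, adjusted p = 0.0254) lost the call without any one of the 4 libraries, with adjusted p between 0.0774 and 0.192. Trim25, a ubiquitin ligase that acts on RIG-I, was at 67.6 and 79.8 CPM in NC and at 93.0 and 88.2 CPM in KO (log2 fold change 0.29, SE 0.10, adjusted p = 0.0194). Without NC 1 it was 0.18 (adjusted p = 0.324) and without KO 1 0.26 (adjusted p = 0.0641). Dtx3l, a ubiquitin ligase that pairs with Parp9, was at 9.06 and 9.96 CPM in NC and at 12.8 and 14.2 CPM in KO. The rise was 0.50 in log2 units (SE 0.16, adjusted p = 0.016), and the call was lost without NC 1 (0.43, adjusted p = 0.11) and without KO 2 (0.42, adjusted p = 0.119). Herc6, the ligase that attaches ISG15 in mice, had a log2 fold change of 0.43 and did not pass (adjusted p = 0.104). Usp18 overlaps Gm44148 on the other strand.

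Of the PARPs, enzymes and binders of ADP-ribose, 2 of 3 were higher, against 19.7% of all genes tested. Parp9 was at 13.0 and 10.5 CPM in NC and at 18.4 and 17.3 CPM in KO, a rise of 0.61 in log2 units (SE 0.15, adjusted p = 0.00227). Without NC 2 it was 0.46 (adjusted p = 0.0572). Parp14 was at 13.99 and 13.86 CPM in NC and at 19.4 and 22.9 CPM in KO, a rise of 0.60 in log2 units (SE 0.14, adjusted p = 0.00137), which did not pass with limma on log2(TPM + 1) (0.48, adjusted p = 0.0737). Parp12 was at 17.7 and 15.9 CPM in NC and at 15.9 and 17.0 CPM in KO, so its groups overlapped and its difference was -0.026 (95% interval -0.32 to 0.26). Parp9 and Dtx3l are read from opposite strands on chromosome 16 and overlap by less than 1 kb, and Parp14 lies 54.97 kb from Dtx3l. In NC 1, KO 1 and KO 2 the expected counts were fractions for Parp9 (148.46, 242.14 and 233.77) and for Dtx3l (102.54, 167.86 and 192.23). Some of their reads were thus divided by the estimate, and the calls of the pair may not be independent.

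Among the other genes, Lgals3bp, a secreted glycoprotein, was at 114.1 and 128.7 CPM in NC and at 156.7 and 154.1 CPM in KO. The log2 fold change was 0.36 (SE 0.09, adjusted p = 0.00372), and without NC 1 it was 0.27 (adjusted p = 0.107). Cmpk2, a nucleotide kinase of mitochondria that stands 12.75 kb from Rsad2 on chromosome 12, was at 1.32 and 1.66 CPM in NC and at 3.57 and 4.15 CPM in KO. This was a rise of 1.36 in log2 units (SE 0.34, adjusted p = 0.00188), which did not pass with limma on log2(TPM + 1) (0.64, adjusted p = 0.18), where the TPM of the groups overlapped. Rtp4 had 6 and 6 counts in the NC libraries against 22 and 20 in the KO libraries, a rise of 1.70 in log2 units (SE 0.54, adjusted p = 0.00862). It was not called without NC 2 (1.56, adjusted p = 0.0814) or without KO 1 (1.61, adjusted p = 0.0792). Ifi35, Ifi27 and Xaf1 did not pass, with log2 fold changes of 0.14, -0.056 and 0.66. Ifi44 had 1 and 4 counts in the NC libraries against 10 and 6 in the KO libraries and was under the filter.

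Larger differences were found among the genes at lower levels. Of the 19 tested genes with the lower mean levels, 0.855 to 11.5 CPM, 13 were higher in KO, and 10 of these by more than 2-fold (5.72% of all genes tested were). Their median log2 fold change was 1.32. Of all 3661 genes in that range of CPM, 21.3% were higher, 13.5% by more than 2-fold, and the median was 0.15. Of the 19 genes with higher means, 12.04 to 138.4 CPM, 10 were higher and 1 was lower, none by more than 2-fold, and the median was 0.33. Of the 6984 genes in that range, 19.1% were higher and 22.4% lower, with a median of -0.038. The lower set holds the 5 genes that passed the filter through KO, so a large fold there was partly required. Among the 33 genes that did not depend on KO for the filter, 5 were over 2-fold higher, and 440 of the 11834 genes of that kind were (3.72%). Those 5 genes were Gbp2, Gbp3, Gbp7, Zbp1 and Cmpk2.

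**Figure D4:**
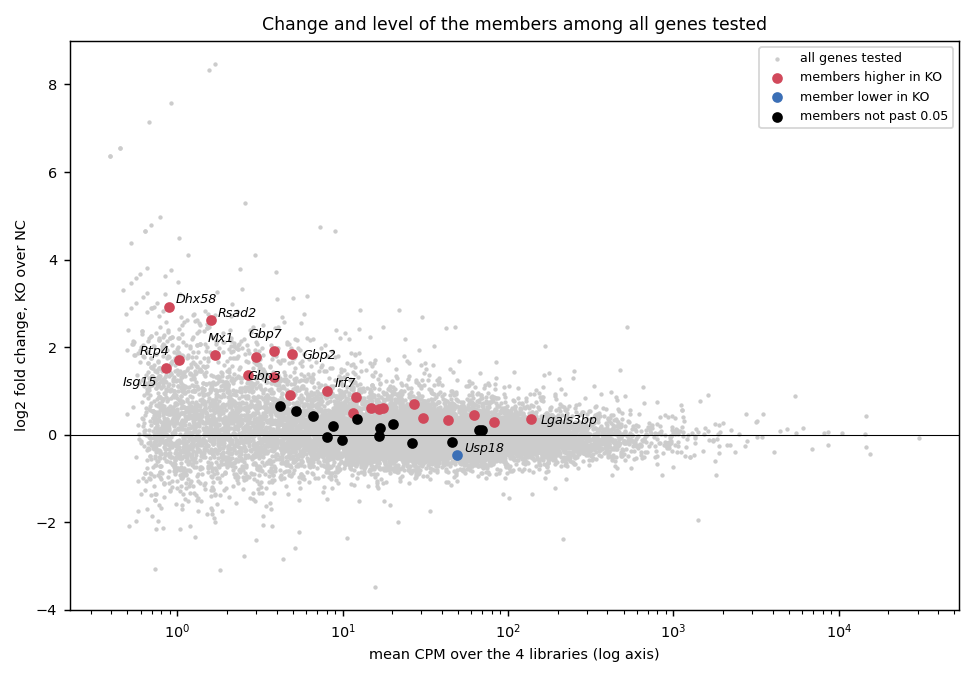
Log2 fold change of KO over NC against mean CPM over the 4 libraries (log axis) for all 12510 tested genes in grey and the 38 tested interferon-stimulated genes in colour. The largest changes lie among genes at a few CPM, and Lgals3bp, the gene with the highest level, changed by 0.36.

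The groups differed by more than the replicates in the median of these genes. The absolute log2 ratio of NC 2 to NC 1 had a median of 0.22, that of KO 2 to KO 1 a median of 0.14, and the absolute log2 fold change a median of 0.52. The first 2 compare single libraries and the last is a fitted difference of groups, so they are not quite alike. The 0.52 includes the 5 genes that passed the filter through KO, and without them the median of the signed log2 fold change was 0.43. The same medians were not taken over all genes. Both KO libraries were above both NC libraries for 31 of the 38 genes, against 34.8% of all genes tested, and below both for 4, against 34.7%. Without the 5 genes that passed the filter through KO, these were 26 and 4 of 33, and 3894 and 4336 of the 11834 genes of that kind.

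Levels can be compared between genes per length, in TPM, the authors' length-scaled share of transcripts. Lgals3bp was highest, at 131.59 and 149.51 TPM in NC and 187.57 and 181.52 TPM in KO. Bst2 followed, at 83.0 and 70.3 TPM in NC and at 97.7 and 102.7 TPM in KO. In NC, Usp18 (43.43 and 42.73 TPM), Irf1 (38.96 and 46.04 TPM) and Oasl1 (40.93 and 37.34 TPM) came next, and Irf1 was not separated from either of the others. In KO, Irf1 (56.57 and 53.08 TPM) stood above Oasl1 (44.85 and 41.71 TPM) and Usp18 (33.20 and 35.85 TPM), with no overlap between the 3. The summed TPM of all 42 genes came to 523.65 and 542.13 for NC against 678.70 and 687.21 for KO, of which Lgals3bp gave 25.1% to 27.6%. Without Lgals3bp and Bst2 it came to 309.06 and 322.32 for NC against 393.39 and 402.98 for KO. In RNA from whole cultures, more RNA per cell and more cells with the RNA cannot be told apart.

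For a few genes TPM and counts gave different sizes. Stat2 rose 1.51-fold in CPM, but its TPM went from 4.48 and 4.82 in NC to 10.42 and 9.60 in KO, a ratio of 2.15. The length assigned to Stat2 by the authors' estimate, an average over its transcripts, was 3624 and 3086 bases in NC and 2428 and 2569 bases in KO. Irf1 had a CPM ratio of 1.08 and a TPM ratio of 1.29, with lengths of 2057 and 1888 bases in NC and 1729 and 1762 bases in KO. For Dhx58 the order was the other way, with the TPM ratio below the fold on counts. Its assigned lengths were 1162 and 605 bases in NC, from 3 and 2 counts, and 1811 and 1754 bases in KO. Whether the use of transcripts differed was not tested.

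The pathway upstream was read from 58 further genes, and the 36 tested gave 5 higher (13.9%), 6 lower (16.7%) and a median log2 fold change of 0.0074. The shares over all genes tested were 19.7% and 18.2%, and with 36 genes neither count is read as a difference from them. Of 21 interferon genes, 18 had no count in any library. The 3 with counts were Ifnz (3 and 5.83 for NC, 5 and 5 for KO), Ifnk (0 and 1 for NC, 0 and 2 for KO) and Ifna2 (1 count in KO 2), all under the filter. The receptor genes Ifnar1, Ifnar2, Ifngr2 and Ifnlr1 did not pass, with log2 fold changes of -0.055, -0.020, 0.019 and -0.24. Ifngr1, the ligand-binding chain of the type II receptor, was higher by 0.33 (SE 0.10, adjusted p = 0.0115), and Il10rb, a chain of the type III receptor, was lower by 0.41 on the log2 scale (adjusted p = 0.0053).

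Of the kinases, Tyk2 was higher (0.43, SE 0.14, adjusted p = 0.0132), and Jak1 (0.056) and Jak2 (0.22, adjusted p = 0.0531) did not pass. Ikbke, a kinase that activates interferon regulatory factors, was higher by 0.56 (SE 0.09, adjusted p = 2.83e-05), and Ticam1, the adaptor of Tlr3, by 0.45 (SE 0.10, adjusted p = 0.00057). Tlr3, the endosomal receptor for double-stranded RNA, was lower, at -1.04 in log2 units (SE 0.29, adjusted p = 0.0047). Pias1, an inhibitor of STAT signalling, was higher by 0.37 (SE 0.12, adjusted p = 0.0135).

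The other lower genes were Irf5 (-0.42, adjusted p = 0.0424), a factor of the interferon regulatory family, and 3 on the list of negative regulators. Irf2bp1, a corepressor, stood at -0.71 in log2 units (SE 0.10, adjusted p = 3.15e-06). Rnaseh2b, a subunit of the enzyme that removes ribonucleotides from DNA, stood at -0.74 (SE 0.20, adjusted p = 0.0037). Samhd1, which degrades deoxynucleotides, stood at -0.42 (SE 0.09, adjusted p = 0.00064). The cytosolic DNA sensor Cgas had 0 counts in 3 libraries and 1 in KO 1.

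**Figure D5:**
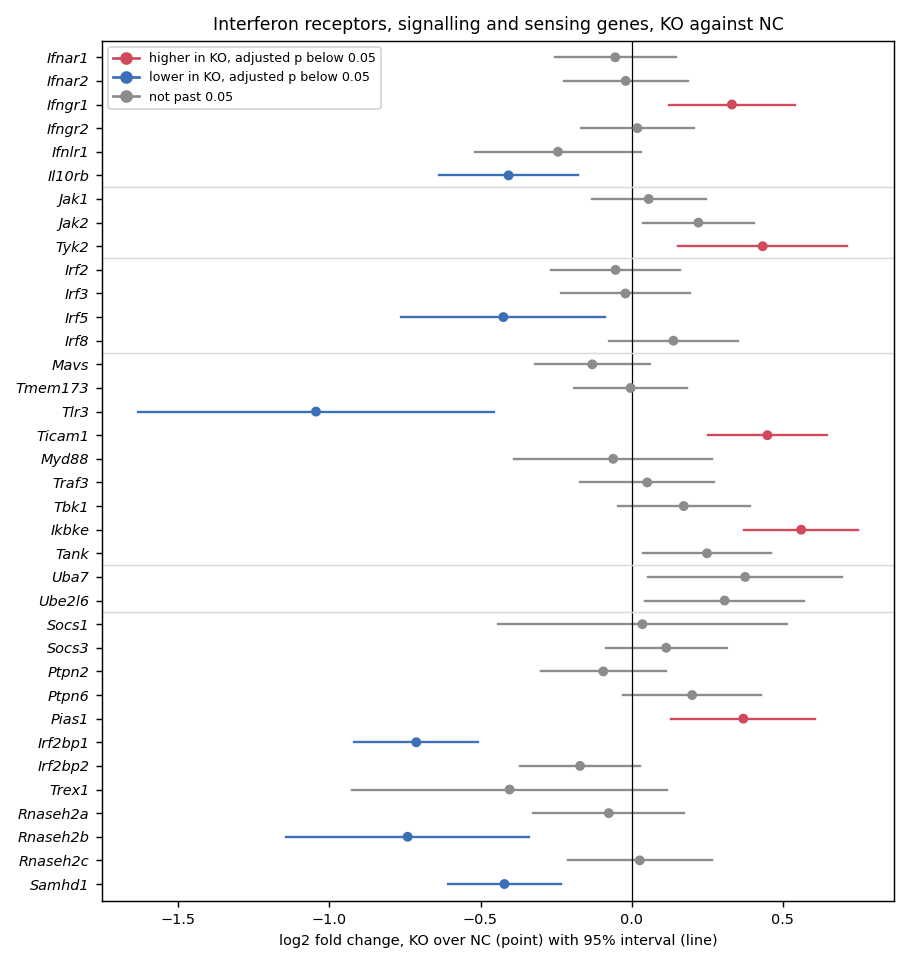
Log2 fold change of KO over NC with 95% intervals for the 36 tested genes of the pathway list, by role. Points lie on both sides of 0, with 5 genes higher and 6 lower in KO, and Tlr3 is the lowest at -1.04.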

How the data were processed

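RNA-seq libraries from 2 NC and 2 KO samples were analysed, 1 deposited table per library. Per the labels' protocols, RNA was extracted with TRIzol, treated with DNase and made into directional libraries. The submitters' processing notes name FastQC, STAR, RSEM and DESeq2 and the builds GRCm38 and mm10. The strand setting of the counting and the annotation release are not given in the sources used here. Per the file headers, the authors' expected counts are estimated fragments per gene and the deposited TPM values are scaled by transcript length. The deposited length, averaged over transcripts, was read as given.

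Expected counts were rounded (totals moved by at most 0.000188%). Genes were kept by edgeR's filterByExpr (minimum count 10), scaled by TMM (factors 0.981 to 1.02) and compared with edgeR's quasi-likelihood test (edgeR 4.0.16, R 4.3.3), group as the only term, two-sided, with Benjamini-Hochberg adjustment over all 12510 genes tested and a threshold of 0.05. Standard errors come from the fitted weights and the moderated dispersion (prior degrees of freedom 25.8), and 95% intervals cover counting error and the spread between these libraries only. With 2 libraries a group, both values are given in place of an SD. The test was tried on simulated counts first.

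The members and the pathway list were chosen with earlier results of these data known. All members are named, and pathway genes are named where they passed 0.05 or encode an interferon, a receptor chain or a JAK kinase. Some genes of the pathway and marker lists are not reported here and were left out of their counts. Alternatives were DESeq2 1.42.0, robust edgeR, other scalings and filters, limma 3.58.1 on log2(TPM + 1) and log2(TPM + 0.1), a replicate block, and each library left out. Genes were placed on GENCODE M21 (GRCm38) by Ensembl ID, and 17 of the 42 overlap exons of another gene. Promoters are from RefSeq (GRCm38.p6), with 10 genes not in that table.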

Additional observations from a re-analysis of the deposited data

How the results depend on the processing

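Of the 24 called genes, 11 kept their direction and call in every alternative that gave them a value except limma on unfiltered TPM: Ddx58, Dhx58, Gbp2, Gbp3, Gbp7, Irf7, Oas1a, Oasl2, Rsad2, Stat2 and Zbp1. Of these, Dhx58 and Rsad2 passed the count filter through KO and could hardly change direction. Dhx58 had no value with a mean CPM of at least 1. How many of all called genes keep their call in the same way was not counted. Limma on log2(TPM + 1) without a filter called 0 of 20640 genes, so 0 members and 0 pathway genes in either direction, where 4506 genes, 21 members upward and 1 downward had an unadjusted p under 0.05. With the filter, limma called 2158 genes on log2(TPM + 1) and 2099 on log2(TPM + 0.1), with 0 members lower in either (1 had an unadjusted p under 0.05). The median over members was 0.60 on log2(TPM + 0.1) and 0.46 on unfiltered log2(TPM + 1). Pathway genes called higher numbered 3 with DESeq2, 3 in each filtered TPM fit, 8 with a mean CPM of at least 1 and 9 with upper-quartile scaling, and those called lower 2 in each filtered TPM fit. Changes of sign were limited to genes that had not passed: in the TPM fits Irf9 (0.082, 0.094 and 0.082), Parp12 (0.016, 0.018 and 0.016) and Ifi27 (0.034 in each), and with a library left out Parp12 (-0.10 to 0.043), Ifi35 (-0.040 to 0.33) and Ifi27 (-0.35 to 0.18). With each library left out, the lone library of the group being assumed to vary like the other group, 3507 to 4488 genes were called, 18 to 21 members higher, 1 lower, with a median of 0.45 to 0.64, and 2 to 6 pathway genes higher and 4 to 7 lower. Same-numbered libraries did not deviate together (correlation -0.012), and the replicate block called 5006 genes, 24 members higher and 1 lower, Xaf1 being the addition (adjusted p = 0.0443). Ifih1 passed without KO 1 (adjusted p = 0.0435) and Xaf1 without NC 1 (adjusted p = 0.0136). The causes of these differences were not tested. Counts under about 20 in both NC libraries limit Dhx58, Rsad2, Isg15, Rtp4, Mx1 and Gbp3 (15 and 19 counts). Gbp7 (14 and 27 counts in NC 1 and NC 2) and Cmpk2 (15 and 23) were under that level in NC 1. Without a filter, Mx2 (1.53, adjusted p = 0.124) and Ifi44 (1.55, adjusted p = 0.238) did not pass.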
